A study of Rattus norvegicus with 10 samples.

Results

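The translation factor genes of rat skeletal muscle, those for the initiation, elongation and release factors of protein synthesis, were followed from death to 48 h of postmortem interval (PMI). Members were taken by symbol: every probe set whose gene symbol begins with Eif1 to Eif6, Eef1 or Eef2, or is Etf1, Gspt1, Abce1, Pabpc1 or Pabpc4, with the probe set of highest mean for a gene and without the 4 Eif2ak genes, which code for kinases of eIF2. This gave 55 genes, each with 1 probe set, of 15037 genes with a named probe set and of 23188 probe sets tested. Genes not analysed here, since no probe set was named for them, included Pabpc1, the scaffold gene Eif4g1, Eif1, Eif5, Eif3g and Eif3k. Femoral muscle came from 5 male wild-type Wistar rats left at 25 °C for 48 h after death, and from 5 such rats sampled at once (0 h), all under 200 g, killed by cervical dislocation and otherwise untreated. The rats were described as adult without an age in weeks, litters were not given, each rat was sampled at 1 time only, and 1 Clariom S Rat array was run per rat.

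Translation begins when eIF2 carries the initiator tRNA to the small ribosomal subunit, eIF3 and the cap-binding eIF4 factors bring that subunit to the message, and eIF1A helps it to scan for the start codon. The elongation factor eEF1A then delivers each aminoacyl tRNA and eEF2 moves the ribosome on, until eRF1 (Etf1) and eRF3 (Gspt1) end synthesis at the stop codon. In muscle, synthesis is adjusted to feeding and load through these factors, for instance through the eIF4E-binding proteins and eEF2 kinase, and adult muscle fibres use eEF1A2 in place of the widespread eEF1A1.

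Start sites are shown for 6 members because the changes below separate close relatives among them (Eef1a2 and Eef1a1, Eif4a2 and Eif4a1) or fall in the largest complex (Eif3i) and the exchange factor of eEF1A (Eef1b2). The windows are RefSeq sequence of build GRCr8, 5′ to 3′ on the gene's strand, with 60 bases before the annotated start and 30 from it on. Capitals mark CCGGAA, the core of the site that ETS family factors bind, or CTTTTTC, a short pyrimidine run, each on either strand (TTCCGG is CCGGAA on the other strand).
Eef1a1 (chr8:88225040-88225129, minus strand): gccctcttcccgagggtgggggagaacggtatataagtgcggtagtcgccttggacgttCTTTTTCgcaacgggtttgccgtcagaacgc
Eef1a2 (chr3:188652604-188652693, minus strand): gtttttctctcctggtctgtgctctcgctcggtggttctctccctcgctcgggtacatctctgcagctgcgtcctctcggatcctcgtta
Eef1b2 (chr9:72074031-72074120, plus strand): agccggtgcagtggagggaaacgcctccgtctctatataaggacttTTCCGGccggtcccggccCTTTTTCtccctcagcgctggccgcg
Eif3i (chr5:147226881-147226970, minus strand): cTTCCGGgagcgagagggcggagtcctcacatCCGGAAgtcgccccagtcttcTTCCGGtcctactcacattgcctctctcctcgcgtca
Eif4a1 (chr10:54888573-54888662, minus strand): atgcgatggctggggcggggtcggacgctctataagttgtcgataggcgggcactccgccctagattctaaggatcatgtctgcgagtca
Eif4a2 (chr11:91275294-91275383, minus strand): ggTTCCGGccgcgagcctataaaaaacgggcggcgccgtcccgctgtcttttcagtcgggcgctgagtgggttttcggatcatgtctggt

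Over the full promoter windows (250 bases before the start and 50 from it on), 49 of the 55 members matched a RefSeq entry, and Eef1d, Eif3e, Eif3h, Eif4b, Eif4e3 and Eif4ebp1 did not. CCGGAA stood in 24 of the 49 windows (49%), against 18.6% of the 19005 windows of protein-coding genes. It was in 13 of 29 windows of members that fell and in 11 of 20 windows of the others. CTTTTTC stood in 4 of 49 windows, 8.16% of them, against 6.51% of the coding windows. The member windows held a median of 61.3% G and C, against 55.3% in the coding windows. These matches describe letters, of 11 short motifs counted, and say nothing of which factors act there.

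Translation factor transcripts were mostly lower at 48 h, with a mean below that of the 0 h rats for 50 of the 55 members. A gene is said here to have fallen or risen at a fold change of at least 2 with an adjusted p under 0.05 (limma, Benjamini-Hochberg over all 23188 probe sets). By that rule 34 of the 55 members fell and 0 rose, while 12.1% of all probe sets fell and 4.35% rose. The median log2 change of the members was -1.16, against 0.10 for all probe sets. By adjusted p alone 46 members were lower and 1 was higher (Eef1a1, by less than 2-fold), where 22.8% of all probe sets were lower and 22% higher. In 40 members every 48 h rat read below every 0 h rat, and in Eef1a1 every 48 h rat read above, against 17.7% and 13.4% of all probe sets.

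The fall was shared by the rats. The median signal over the 55 members was 6.95, 6.55, 6.84, 6.54 and 6.96 in the 48 h rats and 8.04, 8.11, 8.01, 7.95 and 8.01 in the 0 h rats (log2). No 48 h rat reached a 0 h rat in that median. The 48 h rats were more spread: the SD was larger at 48 h than at 0 h in 50 of 55 members, with a median SD of 0.413 and 0.144, and over all probe sets the median SDs were 0.371 and 0.191. Rat 4 read lowest of the 48 h rats for 19 members and rat 2 for 17, whereas rat 1 read highest for 19.

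**Figure D1:**
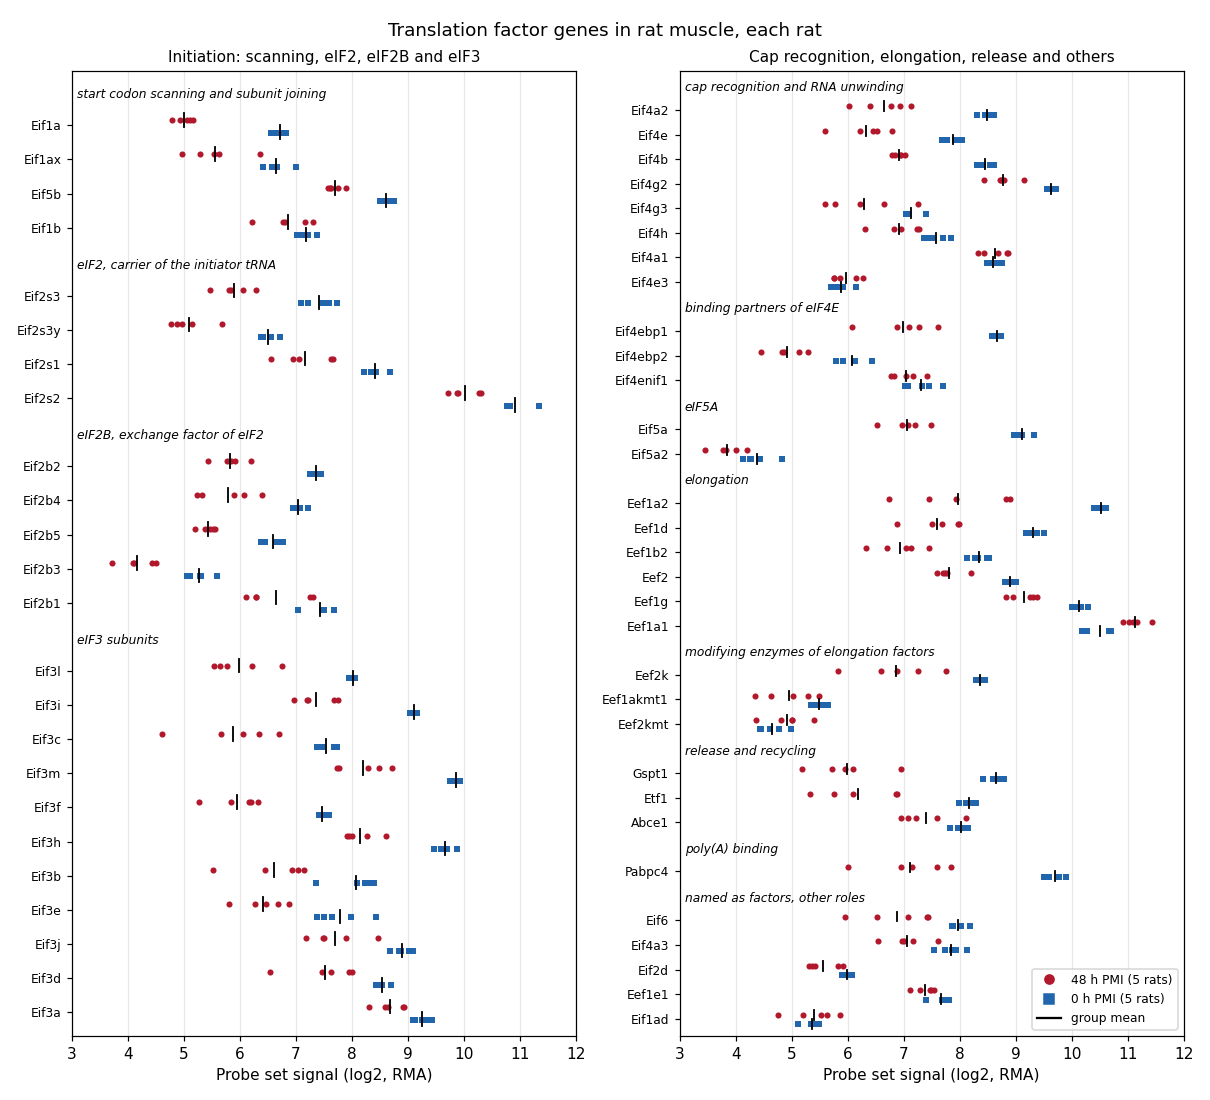
Signal of each of the 55 members on each array (log2, RMA), grouped by role, with 48 h rats as red circles drawn above the 0 h rats as blue squares and a black line at each group mean. In 40 members all red circles lie to the left of all blue squares, and in Eef1a1 all lie to the right.

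Signal itself moved with the change. Across all probe sets the change was more negative where the 0 h signal was higher (Pearson r = -0.60 across 23188 probe sets, which share arrays and normalization), and the members lay high, 53 of 55 above the median signal of all probe sets at 0 h. Their own r was -0.37 across 55 genes. In the band of 0 h signal between the members' quartiles (7.14 to 8.78), 40.8% of all probe sets fell and 2.42% rose, with a median change of -0.79. The 27 members in that band had a median change of -1.41, and 18 of them fell. The members' shift was therefore larger than that of probe sets of like signal, but a large share of those fell too, and no test was made of that difference. The background probe sets of the arrays read a median of 3.69 ± 0.119 in 48 h rats and 3.10 ± 0.0464 in 0 h rats (SD, n = 5 each), the 99th percentile of all signals was 10.06 and 10.71, and the part of these shifts in the members' values was not tested.

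**Figure D2:**
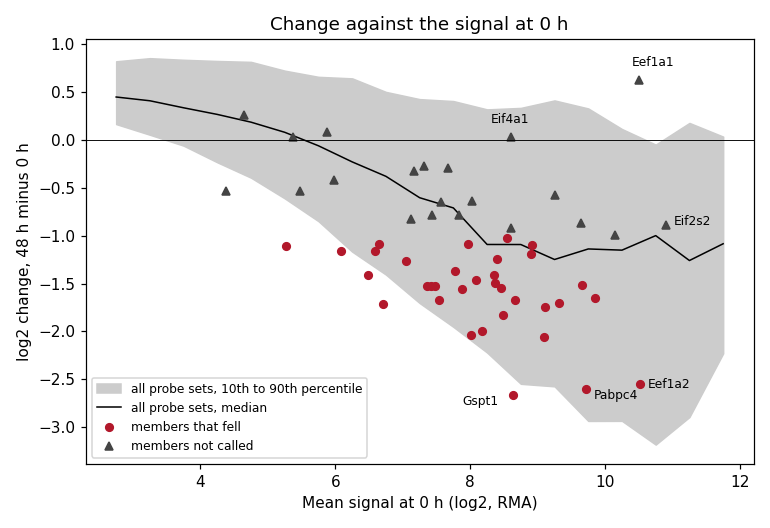
Log2 change (48 h minus 0 h, vertical axis) against the mean 0 h signal (log2, horizontal axis) for the 34 members that fell (red circles) and the 21 others (dark triangles), over the median (line) and the 10th to 90th percentile (grey) of all probe sets in bins of signal. Gspt1, Pabpc4 and Eef1a2 lie lowest at -2.66, -2.60 and -2.54, and Eef1a1 lies at 0.63, above the grey band.

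The largest falls among the members were those of a release factor, Gspt1, and of a poly(A)-binding protein, Pabpc4. Gspt1, the GTPase eRF3 that works with eRF1 at stop codons, read 6.95, 5.72, 5.96, 5.19 and 6.09 in 48 h rats and 8.41, 8.60, 8.79, 8.75 and 8.67 in 0 h rats. That was a fall of 6.34-fold (log2 change -2.66, SE 0.246, adjusted p = 2.43e-07), and the highest 48 h rat stayed well below the lowest 0 h rat. Etf1, the stop-codon reader eRF1, read 5.75, 5.32, 6.86, 6.09 and 6.88 in 48 h rats and 8.23, 8.30, 8.12, 7.99 and 8.23 in 0 h rats. It fell 3.99-fold (-1.99, SE 0.256, adjusted p = 8.43e-06), again with no overlap. Abce1, the ATPase that splits ribosomes after release, did not pass the fold threshold: it read 7.22, 7.07, 6.96, 8.12 and 7.60 in 48 h rats and 8.09, 8.11, 8.14, 7.97 and 7.82 in 0 h rats. Rat 4 at 48 h lay among the 0 h rats and the other 48 h rats lay below them (-0.63, SE 0.205, adjusted p = 0.0192). Pabpc4, which binds poly(A) tails and is induced in activated T cells in humans, read 7.60, 6.01, 7.85, 6.95 and 7.14 in 48 h rats and 9.51, 9.78, 9.77, 9.89 and 9.60 in 0 h rats. It fell 6.07-fold (-2.60, SE 0.264, adjusted p = 6.38e-07), and rat 2 was the lowest 48 h rat by almost a whole log2 unit.

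Elongation split between the 2 forms of eEF1A. Eef1a2, the form of muscle, heart and neurons, read 8.89, 6.73, 8.82, 7.93 and 7.46 in 48 h rats and 10.57, 10.51, 10.61, 10.49 and 10.39 in 0 h rats. The 0 h rats were nearly equal (SD 0.082), while the 48 h rats were far apart (SD 0.917), and the fall was 5.83-fold (-2.54, SE 0.315, adjusted p = 5.77e-06). Eef1a1, the form found in most cells, read 11.10, 11.43, 11.02, 10.92 and 11.16 in 48 h rats and 10.67, 10.71, 10.27, 10.18 and 10.67 in 0 h rats. Its groups did not overlap and it was 1.54-fold higher (0.63, SE 0.171, adjusted p = 0.00699), a direction that turned to -1.44 when arrays were centred on Bacillus spike-in controls and to -0.65 when centred on E. coli and P1 controls, and that reached 1.30 after cyclic loess. RefSeq lists 20 pseudogenes of Eef1a1 in GRCr8 and none of Eef1a2, so that probes for Eef1a1 may read near-identical copies and its value is uncertain.

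The other elongation genes were lower. Eef2, the translocase, read 8.21, 7.60, 7.74, 7.77 and 7.71 in 48 h rats and 8.87, 9.0, 8.81, 8.92 and 8.93 in 0 h rats, and fell 2.14-fold (-1.10, SE 0.159, adjusted p = 2.97e-05). Eef1d, a guanine nucleotide exchange subunit for eEF1A, read 7.98, 6.88, 7.97, 7.50 and 7.68 in 48 h rats and 9.50, 9.38, 9.24, 9.24 and 9.19 in 0 h rats (-1.71, SE 0.200, adjusted p = 3.21e-06). In both genes the groups were apart, and rat 2 was the lowest at 48 h. Eef1b2, the other exchange subunit, fell as well (-1.41, adjusted p = 2.18e-05). Eef1g, the anchoring subunit, ended just short of the fold threshold (-0.99, adjusted p = 0.000101), and 16 pseudogenes of it are listed. Of the enzymes that modify elongation factors, Eef2k, the kinase that inhibits eEF2, fell (-1.50, adjusted p = 0.00021). The methyltransferase genes Eef1akmt1 (-0.53, adjusted p = 0.0455) and Eef2kmt (0.27, adjusted p = 0.283, and below 0 under 3 of the array centrings) did not pass. Eif5a, whose hypusine-bearing protein helps ribosomes past proline-rich stretches, read 6.97, 7.20, 7.07, 6.53 and 7.49 in 48 h rats and 9.05, 9.12, 8.97, 9.32 and 9.06 in 0 h rats. Its fall was 4.15-fold (-2.05, SE 0.182, adjusted p = 1.56e-07), while its relative Eif5a2, which at 48 h averaged below the mean of the background probe sets, gave -0.53 (adjusted p = 0.0268).

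The members held 11 subunit genes of eIF3, the largest initiation complex, without Eif3g and Eif3k. Of these 11, 10 fell, and in all 11 every 48 h rat read below every 0 h rat, against 17.7% of all probe sets. That last share was not counted for probe sets of like signal. The median change was -1.51. Among all probe sets whose 0 h signal lay within the quartiles of these subunits, 51.3% fell, with a median of -1.04. Eif3l read 5.65, 6.74, 6.22, 5.53 and 5.77 in 48 h rats and 8.04, 8.06, 8.01, 7.95 and 8.01 in 0 h rats, and fell 4.09-fold (-2.03, SE 0.207, adjusted p = 6.77e-07). Eif3i, a WD-repeat subunit, read 7.75, 7.22, 7.68, 6.96 and 7.19 in 48 h rats and 9.14, 9.16, 9.09, 9.03 and 9.11 in 0 h rats (-1.74, SE 0.175, adjusted p = 5.87e-07). In both the 0 h rats lay close together, with an SD of 0.0412 for Eif3l and 0.0495 for Eif3i. Eif3c, a core subunit, read 6.69, 6.05, 5.66, 4.60 and 6.34 in 48 h rats and 7.47, 7.44, 7.67, 7.73 and 7.38 in 0 h rats (-1.67, SE 0.288, adjusted p = 0.000174), rat 4 being the lowest. The falls of the remaining called subunits were -1.65 for Eif3m, -1.52 for Eif3f, -1.51 for Eif3h, -1.46 for Eif3b, -1.37 for Eif3e, -1.19 for Eif3j and -1.03 for Eif3d (adjusted p from 2.37e-06 for Eif3h to 0.00171 for Eif3d). Eif3a, the scaffold of the complex, was lower in every 48 h rat, by 1.49-fold on average (-0.57, adjusted p = 0.0103, and 0.041 after cyclic loess), and did not pass. The probe set of Eif3h is placed by its identifier on chromosome 6 and that of Eif3e on chromosome 13, although both genes lie on chromosome 7 in GRCr8, so these 2 values may belong to copies.

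**Figure D3:**
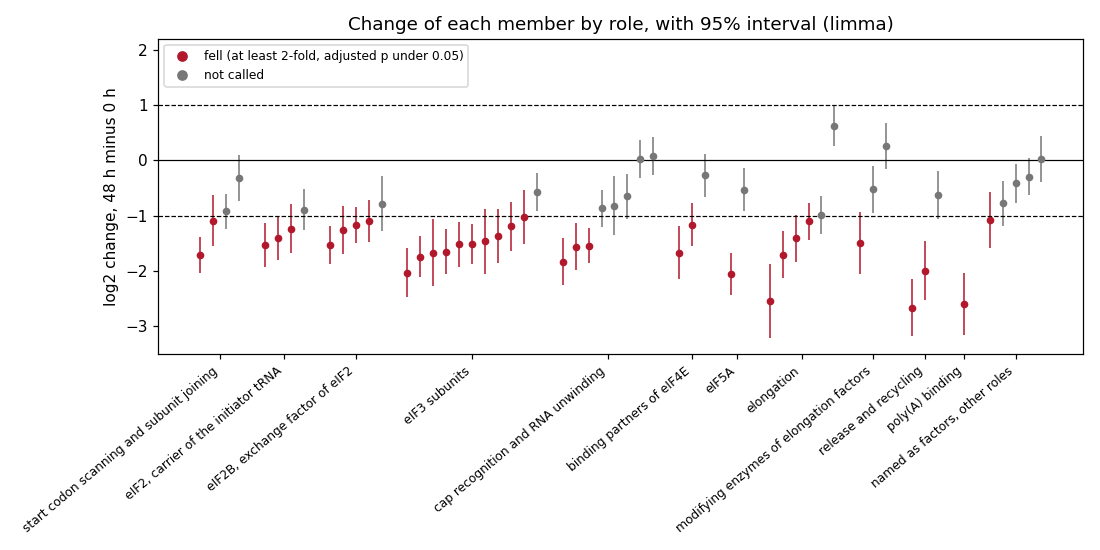
Log2 change of each member (48 h minus 0 h) with its 95% interval from limma, members side by side within each role, red for the 34 that fell and grey for the 21 not called, with dashed lines at a 2-fold change. Of the eIF3 subunits only Eif3a is grey, and Eef1a1 is the one point whose interval lies wholly above 0.

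The ternary complex and its exchange factor were lower as well. Eif2s1, the alpha subunit of eIF2 whose phosphorylation slows initiation, read 7.66, 6.55, 7.06, 6.94 and 7.63 in 48 h rats and 8.67, 8.36, 8.22, 8.34 and 8.43 in 0 h rats (-1.24, SE 0.209, adjusted p = 0.000143). The gamma subunit genes also fell: Eif2s3 gave -1.53 (adjusted p = 5.26e-06) and the Y-linked Eif2s3y gave -1.41 (adjusted p = 1.08e-05). At 48 h Eif2s3y averaged 5.08, close to the mean background of 4.78. Eif2s2, the beta subunit, was lower in every 48 h rat by 1.85-fold and did not pass (-0.89, adjusted p = 0.000649). Of the 5 subunits of eIF2B, which recharges eIF2 with GTP, 4 fell: Eif2b2 at -1.53, Eif2b4 at -1.26, Eif2b5 at -1.16 and Eif2b3 at -1.10 (adjusted p from 1.27e-06 for Eif2b2 to 0.000119 for Eif2b4). Over their range of 0 h signal, 2.86% of all probe sets fell at 5 to 5.5 and 31% at 7 to 7.5. Eif2b1 gave -0.78 with overlapping groups (adjusted p = 0.0129), and Eif2b3 averaged below the mean background at 48 h, so that its fall may be understated.

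Of the 4 genes for scanning and subunit joining 2 fell. Over their range of 0 h signal, 22.3% of all probe sets fell at 6.5 to 7 and 54% at 8.5 to 9. Eif1a, a gene for eIF1A, read 5.05, 4.78, 5.11, 5.16 and 4.92 in 48 h rats and 6.81, 6.74, 6.56, 6.64 and 6.82 in 0 h rats (-1.71, SE 0.152, adjusted p = 1.56e-07). Both groups were tight, with an SD of 0.152 at 48 h and 0.113 at 0 h. Its X-linked relative Eif1ax also fell (-1.09, adjusted p = 0.000755). Eif5b, which joins the ribosomal subunits, was lower in every 48 h rat and fell short of 2-fold (-0.92, adjusted p = 9.22e-05), and Eif1b overlapped (-0.32, adjusted p = 0.191).

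At the cap, the helicase genes parted. Eif4a2 read 6.93, 7.13, 6.03, 6.77 and 6.40 in 48 h rats and 8.61, 8.57, 8.31, 8.50 and 8.45 in 0 h rats, a fall of 3.56-fold (-1.83, SE 0.198, adjusted p = 1.31e-06). Eif4a1, for the closely related helicase eIF4AI, read 8.68, 8.84, 8.32, 8.43 and 8.86 in 48 h rats and 8.76, 8.66, 8.50, 8.48 and 8.60 in 0 h rats, with the groups intermixed (0.03, SE 0.163, adjusted p = 0.903). That value became -0.49, -2.04 and -1.25 with arrays centred on olfactory receptor, Bacillus, or E. coli and P1 probe sets. After cyclic loess it was 0.62 (adjusted p = 0.0041), and 8 pseudogenes of Eif4a1 are listed. Eif4e, the cap-binding protein, read 5.60, 6.46, 6.80, 6.22 and 6.52 in 48 h rats and 7.98, 8.04, 7.91, 7.77 and 7.69 in 0 h rats (-1.56, SE 0.202, adjusted p = 9.57e-06). The groups were more than a log2 unit apart on average with rat 1 lowest, and 10 pseudogenes are listed for Eif4e. Eif4b, which assists eIF4A, fell with the tightest 48 h group among the cap genes (-1.54, SD 0.0883 at 48 h and 0.120 at 0 h, adjusted p = 3.38e-07). Not called were Eif4g2, for a relative of the eIF4G scaffold that lacks the eIF4E site (-0.87, adjusted p = 0.000355), Eif4g3 (-0.82, adjusted p = 0.0143), the helper Eif4h (-0.65, adjusted p = 0.0123) and the divergent cap-binding Eif4e3 (0.08, adjusted p = 0.708, below 0 under 3 of the array centrings).

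The repressors of eIF4E fell beside eIF4E. Eif4ebp1, which releases eIF4E when mTOR phosphorylates it, read 7.10, 6.07, 7.61, 6.88 and 7.28 in 48 h rats and 8.73, 8.69, 8.58, 8.67 and 8.63 in 0 h rats (-1.67, SE 0.227, adjusted p = 1.52e-05). Rat 2 was again the lowest 48 h rat, and no rats overlapped. Eif4ebp2 gave -1.16 (adjusted p = 8.62e-05), with a 48 h mean of 4.92 close to the mean background of 4.78. Eif4enif1, which carries eIF4E into the nucleus, overlapped (-0.27, adjusted p = 0.245). Among genes named as factors that act elsewhere, Eif6, which keeps free large subunits from joining, fell (-1.08, adjusted p = 0.00173). The others did not: Eif4a3 of the exon junction complex (-0.78, adjusted p = 0.00404), Eif2d (-0.41, adjusted p = 0.053), Eef1e1 of the tRNA synthetase complex (-0.29, adjusted p = 0.143) and Eif1ad (0.03, adjusted p = 0.911, below 0 under 3 of the array centrings). Counted by function, 30 of 44 factors proper fell with a median change of -1.31, where 45.5% of all probe sets within the quartiles of their 0 h signal fell. Of 11 regulators, modifying enzymes and genes of other roles 4 fell with a median of -0.53, where 21% of all probe sets within their lower band of signal fell, and the difference between these groups was not tested.

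Ratios within an array compare close relatives, and centring an array cannot change them, although cyclic loess can. These 8 pairs were chosen as relatives with the values above known, so the ratios are given as a description, as log2 of the named gene over its relative. Eef1a2 over Eef1a1 was -2.21, -4.70, -2.20, -2.99 and -3.70 in 48 h rats and -0.10, -0.20, 0.34, 0.30 and -0.28 in 0 h rats. The change in that ratio was -3.17 (SE 0.493), without overlap, and ran from -3.41 to -2.79 with any 1 rat left out. Eif4a2 over Eif4a1 was -1.75, -1.71, -2.29, -1.66 and -2.47 in 48 h rats and -0.16, -0.09, -0.19, 0.02 and -0.15 in 0 h rats, a change of -1.86 (SE 0.172), also without overlap (-1.95 after cyclic loess). Signals of different probe sets do not measure relative abundance, so the change of a ratio is read here and not its level. Eif4e over Eif4e3 changed by -1.64 (SE 0.250, and -1.37 after loess), with all 48 h rats below all 0 h rats. Eif1a over Eif1ax changed by -0.62 (SE 0.230), and ran from -0.71 to -0.43 with any 1 rat left out. Its groups barely parted: 48 h rat 3 and 0 h rat 1 both read -0.18 when rounded. Eif1a also lay close to the mean background at 48 h. For Eif5a over Eif5a2 the values differed by -1.52, and by -0.69 after loess, but Eif5a2 averaged 3.85 at 48 h, under the mean background of 4.78, so this is not a measured change of a ratio. The other 3 ratios overlapped. Eif4ebp1 over Eif4ebp2 changed by -0.51 (95% interval -1.18 to 0.17, and -0.015 after loess). Eif2s3y over Eif2s3 changed by 0.12 (-0.48 to 0.72) and Eif4g3 over Eif4g2 by 0.05 (-0.88 to 0.98). These intervals leave room for differences of most of a log2 unit, and of more than 1 for Eif4ebp1 over Eif4ebp2.

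**Figure D4:**
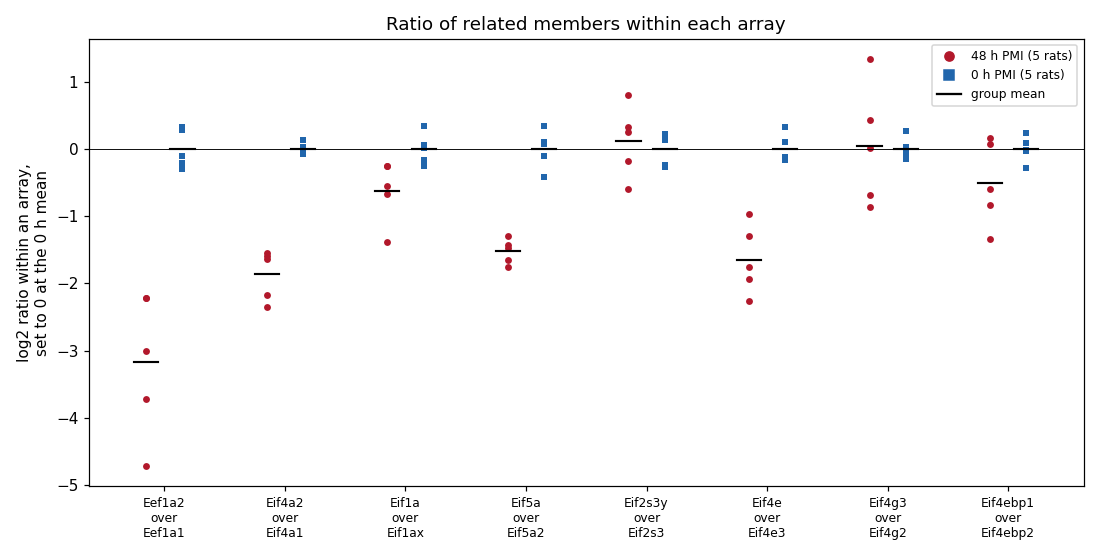
Log2 ratio of the first gene over the second within each array for 8 pairs of related members, shifted so that the mean of the 0 h rats is 0, with 48 h rats as red circles left of the 0 h rats as blue squares and black lines at the means. Eef1a2 over Eef1a1 changed most (-3.17), Eif5a2 lies under the mean background at 48 h, and the groups overlap for Eif2s3y over Eif2s3, Eif4g3 over Eif4g2 and Eif4ebp1 over Eif4ebp2.

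Messages that begin with a 5′ terminal oligopyrimidine tract (TOP), a class known in human and mouse cells whose translation follows mTOR, were also counted. Of 10 listed among the members 9 were measured, and 7 fell (median change -1.41), where 55.2% of all probe sets within the quartiles of their 0 h signal fell. Besides Eef1a1, the one not called was Eef1g, while Eef1b2, Eef1d, Eef2, Eif3e, Eif3f, Eif3h and Eif4b fell. The windows of Eef1a1 and Eef1b2 printed above both hold CTTTTTC close to the annotated start. Among the 46 members outside the list 27 fell (median -1.13), and 36% of all probe sets within their quartiles did.

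Genes that act on these factors were counted in the same way, beside the 12.1% of all probe sets that fell and the share that fell within the quartiles of each list's own 0 h signal. Of 18 measured genes that control translation factors, of 20 listed, 5 fell and 0 rose (27.8%, median -0.62), close to the 22.6% of probe sets of like signal. They were Rps6kb1, the ribosomal S6 kinase (-1.74), Eif2ak1, the heme-regulated eIF2 kinase (-1.47), Gcn1, an activator of another eIF2 kinase (-1.34), Mknk2, a kinase of eIF4E (-1.15), and Ppp1r15b, a subunit of the eIF2 phosphatase (-1.10), with adjusted p from 1.97e-06 for Eif2ak1 to 0.00445 for Ppp1r15b. By adjusted p alone 10 of the 18 were lower and 3 higher, against 22.8% and 22% of all probe sets. The higher ones were the eIF2 kinase genes Eif2ak3 (0.57, adjusted p = 0.00954) and Eif2ak4 (0.69, adjusted p = 0.00338), and Impact (0.71, adjusted p = 0.00328). In each, every 48 h rat read above every 0 h rat. Centring moves all probe sets of an array alike, so the direction of these higher genes depends on scaling too. Eef1a1, with a change of 0.63, gave -1.44 with Bacillus and -0.65 with E. coli and P1 controls. It stayed above 0 with olfactory receptors (0.11) and cyclic loess (1.30). Eif2ak2 overlapped (0.04, adjusted p = 0.886). Of 12 measured genes of rescue, reinitiation and modification, of 14 listed, 5 fell (41.7%, median -0.71), against 15.1% of probe sets of like signal. Among them were Mcts1 (-2.10) and its partner Denr (-1.27), which act in reinitiation, and Dhps, which takes the first step of hypusine synthesis on eIF5A (-1.28). Hbs1l, which rescues stalled ribosomes (-1.24), and N6amt1, which methylates eRF1 (-1.05), completed them (adjusted p from 1.22e-07 for Mcts1 to 0.00208 for N6amt1). Of 11 measured mitochondrial translation factors, of 12 listed, 5 fell (45.5%, median -0.33), against 20.7% of probe sets of like signal: the elongation factor Gfm1 (-1.96), the elongation factor-like GTPase gene Guf1 (-1.71), the recycling factor Gfm2 (-1.60), the initiation factor Mtif2 (-1.50) and Mtfmt, which formylates the initiator tRNA (-1.08), with adjusted p from 4.09e-08 for Gfm1 to 0.000366 for Mtfmt. The elongation factor genes Tufm and Tsfm were not called (-0.33 and -0.09).

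Whole-muscle RNA was measured, so fewer cells of a type and less RNA per cell cannot be told apart. The authors checked RNA integrity at 0 h and left that check out at 48 h, where they expected degradation. The part of RNA breakdown in the changes was not tested. The muscle label held, with the mean of 11 skeletal muscle markers between 10.47 and 11.56 in 48 h rats and between 12.43 and 12.48 in 0 h rats. Of those markers 6 fell (54.5%, median -1.11), against 68.4% of the 19 probe sets within their quartiles of signal. All 4 measured erythroid markers rose, where 3.21% of probe sets of like signal did, and their mean lay between 9.63 and 10.26 in 48 h rats and between 7.61 and 8.67 in 0 h rats. Of 6 endothelial markers 5 rose, against 2.88% of probe sets of like signal (mean 8.12 to 8.86 in 48 h rats and 6.87 to 7.41 in 0 h rats), and of 6 fibroblast markers 5 fell, against 54% of probe sets of like signal (mean 8.34 to 8.56 in 48 h rats and 9.39 to 9.89 in 0 h rats). Of 5 macrophage markers 1 fell, against 3.36% of probe sets of like signal. Of 3 neutrophil and of 3 adipocyte markers 1 each rose, against 5.53% and 3.68% of probe sets of like signal. No lymphocyte, smooth muscle or Schwann cell marker passed. The part of these marker shifts in the members' changes was not tested. Calls of a rise depended on scaling. Of all 23188 probe sets 1009 rose in the main fit and 1307 after cyclic loess. Centring on olfactory receptors left 172 that rose, on E. coli and P1 controls 13 and on Bacillus controls 0. Arrays correlated at 0.901 to 0.940 among 48 h rats, 0.978 to 0.988 among 0 h rats and 0.832 to 0.887 between the groups.

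The count of lower members depended on scaling. Cyclic loess left 21 members lower and called 1 higher (Eef1a1), where 2049 of all 23188 probe sets were lower and 1307 higher. No longer called were Eef2, Eef1b2, Eef2k, Eif1ax, Eif2b4, Eif2b5, Eif2s1, Eif3b, Eif3d, Eif3e, Eif3h, Eif3j and Eif6. Centring on Bacillus controls made 55 members lower, but also 22407 of the 23188 probe sets.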

How the data were processed

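The authors labelled muscle RNA with a 3′ kit, hybridized it to Clariom S Rat arrays and processed them with RMA in Transcriptome Analysis Console 4.0 (build rn6, per the labels), which subtracts background, equalizes the distributions of probe intensities across arrays and then summarises probes. The deposited log2 values were used as they stand. Control probe sets (1646 of 24834) were left out. Groups came from the sample labels. The 48 h and 0 h rats (5 and 5) were compared with limma 3.58.1 in R 4.3.3 (lmFit and eBayes, two-sided, 8 residual degrees of freedom) over 23188 probe sets with Benjamini-Hochberg adjustment. The fit was tested on simulated data with the spread of the 0 h rats in both groups, so not at the wider spread of the 48 h rats. Gene names came from the platform table, with RefSeq GRCr8 for promoters, pseudogenes and chromosomes; rn6 coordinates were not used. With 5 arrays a group, their number limits the precision. Members, roles, gene lists and gene pairs were chosen with earlier results of these data known. Named with every rat's value were the 12 called members with the largest change and a set of central factors, whatever their change. Same-numbered rats were not paired: their deviations from the group means correlated at -0.00416 to 0.0761, with 0 of 5 over 0.1. Alternatives were other moderation, array weights, cyclic loess, 3 centrings, a dim filter, other thresholds, a replicate block and leaving out each rat. Figures were drawn with matplotlib 3.10.9.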

Additional observations from a re-analysis of the deposited data

Results flagged for a closer look

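Of 110 groups of 5 rats (55 members at each time), 2 had a rat far from the others by Dixon's criterion, both at 0 h, where chance alone flags about 1 group in 20. Eif2s2 read 11.33 in 0 h rat 1, against 10.82 in the next rat (gap over range 0.888). Eif4g3 read 7.39 in the same rat, against 7.08 in the next (gap over range 0.88).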

How the results depend on the processing

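The 34 lower members stayed 34 with other moderation, array weights, an unadjusted p or the replicate block (median -1.16), 33 without dim probe sets, and 32 to 36 with any 1 rat left out. Left-out rats removed the calls of Eif1ax and Eif2b3 (48 h rat 2), Eif3d and Eif6 (48 h rat 3), Eif6 (48 h rat 4) and Eif3d (0 h rat 2). The rat numbers gave no pairing, and 3 of 5 correlated best with their own number. Cyclic loess gave 21 lower and 1 higher, losing the 13 calls named above, where 2049 of all probe sets were lower and 1307 higher. Adjusted p alone gave 1 higher. Centring on olfactory receptors gave a median of -1.68 (all probe sets -0.42). On Bacillus controls it gave 55 lower, where 22407 of all 23188 probe sets were lower, and a median of -3.23 (all -1.97). On E. coli and P1 controls it gave 54 lower, where 14650 of all probe sets were, and a median of -2.44 (all -1.18). Each lay 1.26 below the median of all, as in the main fit, a gap that centring cannot change. After cyclic loess the median was -0.89 for the members and 0.01 for all probe sets. Of the 34, 20 were called under every alternative. Over all members and alternatives 1044 changes kept their direction and side of the threshold. Another 64 newly passed it in the same direction, 19 no longer did and 25 changed sign. The changes of sign were all among members not called in the main fit. Those under Bacillus controls also newly passed as lower, as did all but Eef1a1 under E. coli and P1 controls. With loess Eef1e1 gave 0.21, Eif1b 0.11, Eif3a 0.041 and Eif4enif1 0.19, and the log2 ratios Eif2s3y minus Eif2s3 and Eif4g3 minus Eif4g2 gave -0.11 and -0.20. With olfactory receptors Eef2kmt gave -0.25, Eif1ad -0.49, Eif4a1 -0.49 and Eif4e3 -0.44. With Bacillus controls Eef1a1 gave -1.44, Eef2kmt -1.81, Eif1ad -2.04, Eif4a1 -2.04 and Eif4e3 -1.99. With E. coli and P1 controls Eef1a1 gave -0.65, Eef2kmt -1.01, Eif1ad -1.25, Eif4a1 -1.25 and Eif4e3 -1.20. With 1 rat left out, Eif1ad ran from -0.087 to 0.19, Eif4a1 from -0.032 to 0.10, Eif2s3y minus Eif2s3 from -0.049 to 0.30 and Eif4g3 minus Eif4g2 from -0.27 to 0.27. The cause of these differences was not tested.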
